A study of Mus musculus with 4 samples.

Results

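Bone marrow mononuclear cells of TLR9-/- and WT mice were examined for 10 cathepsin genes, Ctsb, Ctsc, Ctsh, Ctsl, Ctss, Ctsw, Ctsz, Ctsd, Ctse and Ctsa. These are 10 of the 31053 genes in the files, in which 23 gene symbols begin with Cts. The set was chosen by the higher UMI level of Ctsl in TLR9-/- monocytes in earlier results of these data. Ctsl in monocytes, in cells named monocyte precursors and in macrophages is therefore described below without a test. The question was whether plasmacytoid dendritic cells (pDCs), B cells and other cells shared that difference, and whether other cathepsins did. All mice were C57BL/6, with 2 TLR9-/- mice, in which both alleles of the Toll-like receptor 9 gene are disrupted, and 2 WT mice. The labels give neither their age nor a treatment. Femur and tibia marrow was passed over a density gradient, and 1 library per mouse was sequenced from the 5′ end of the transcripts. The study ran 2 experiments with 1 mouse of each genotype, and whether library numbers 1 and 2 mark these experiments is not in the labels.

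Cathepsins are proteases of endosomes and lysosomes that are made as inactive precursors and activated in acidic compartments. Cathepsins B, C, H, L, S, W and Z are cysteine proteases, cathepsins D and E are aspartic proteases, and cathepsin A is a serine carboxypeptidase that also protects lysosomal glycosidases. In immune cells they degrade internalised proteins, trim the invariant chain of MHC class II, activate granule proteases and cleave endosomal Toll-like receptors, TLR9 among them, into their signalling form.

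Of 40545 barcodes, 39167 cells were kept, with 31210188 to 63958243 unique molecular identifiers (UMIs, which mark captured molecules) per library and a median of 1759 to 3618 per cell. Both TLR9-/- libraries were deeper than both WT libraries. Pairs of libraries shared 112 to 185 cell barcodes, where random draws from the barcode list would share 107.6 to 154.6. Cells fell into 33 clusters, and 36239 cells were given 1 of 15 class names by their marker genes. One further cluster of 2626 dividing cells led by Myl4 and histone genes was kept by its number, 3. It carried B-cell precursor markers (levels below) and is not counted as a separate lineage. Another cluster of 302 cells with immunoglobulin and granule genes together was not used. Genes whose symbols begin with Cts took no part in the clustering. A level below is in CPM, the share of a gene in all UMIs of that class and library, scaled to counts per 1e6. A fold change is on the log2 scale, TLR9-/- against WT, from edgeR's quasi-likelihood test on the summed UMIs with Benjamini-Hochberg adjustment over all genes tested in the class. The smallest p of an exact permutation test with 2 libraries on each side is 0.33. The targeted gene, Tlr9, was read with 41 and 48 UMIs in TLR9-/- and with 120 and 97 in WT marrow. In UMIs summed over cells, fewer expressing cells and less RNA per cell cannot be told apart. Shares of cells with a Ctsl UMI are given below for monocytes, pDCs and B cells.

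Each cathepsin had its own distribution over the marrow. Ctsl, an endopeptidase of the lysosome encoded on chromosome 13 of GRCm38 from 64359337 to 64370890 (ENSMUSG00000021477, minus strand), was highest in pDCs, where it was at 885.7 and 1005 CPM in the TLR9-/- libraries and at 899.3 and 680.3 CPM in the WT libraries. pDCs held 46.2% of the 11636 Ctsl UMIs, although they were 5.7% of the cells. The class next in order, 63 mesenchymal cells with Col1a1, Col1a2, Cxcl12 and Sparc, lay between 303.5 and 512.6 CPM, below every pDC library. Conventional dendritic cells (cDCs) followed at a mean of 109 CPM, monocytes at 69.4, macrophages at 68.2, HSPCs at 45.4, basophils at 40.1 and erythroid cells at 38.3 CPM. Of the cells in the cDC class 40.5% had a UMI of Siglech, Cox6a2, Klk1 or Ccr9, which are pDC genes. Levels given for cDCs include these cells unless stated. With such cells left out of both classes, Ctsl was lower in cDCs than in monocytes in every library (levels below). B cells were last, at 1.83 and 4.78 CPM in the TLR9-/- and 7.31 and 4.11 CPM in the WT libraries, from 46 UMIs in 6482 cells. Only the first and second steps of this order, pDCs over mesenchymal cells and mesenchymal cells over cDCs, separated all 4 libraries of one class from all 4 of the next, and the other 13 neighbours overlapped. Of the mesenchymal cells 66.7% were marked as doublets, and their place in this order rests on few UMIs. Cells with at least 1000 UMIs, 32935 in all, were also thinned to 1000 UMIs each, and cells with fewer were left out of that run. There the mesenchymal cells were at 500.0 to 1571 CPM from 43 Ctsl UMIs. Their mean was 943 CPM, above the mean of 893 CPM in pDCs. Without marked doublets they were also first, at a mean of 991 CPM against 926 CPM in pDCs, and in both cases the libraries of these 2 classes overlapped. Among the genes most like Ctsl over the 15 named classes were Ddr1 (Pearson r = 0.935 of log2(CPM + 10)) and Pdgfa (0.926). These classes share the same 4 libraries, so the r values are descriptions.

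**Figure D1:**
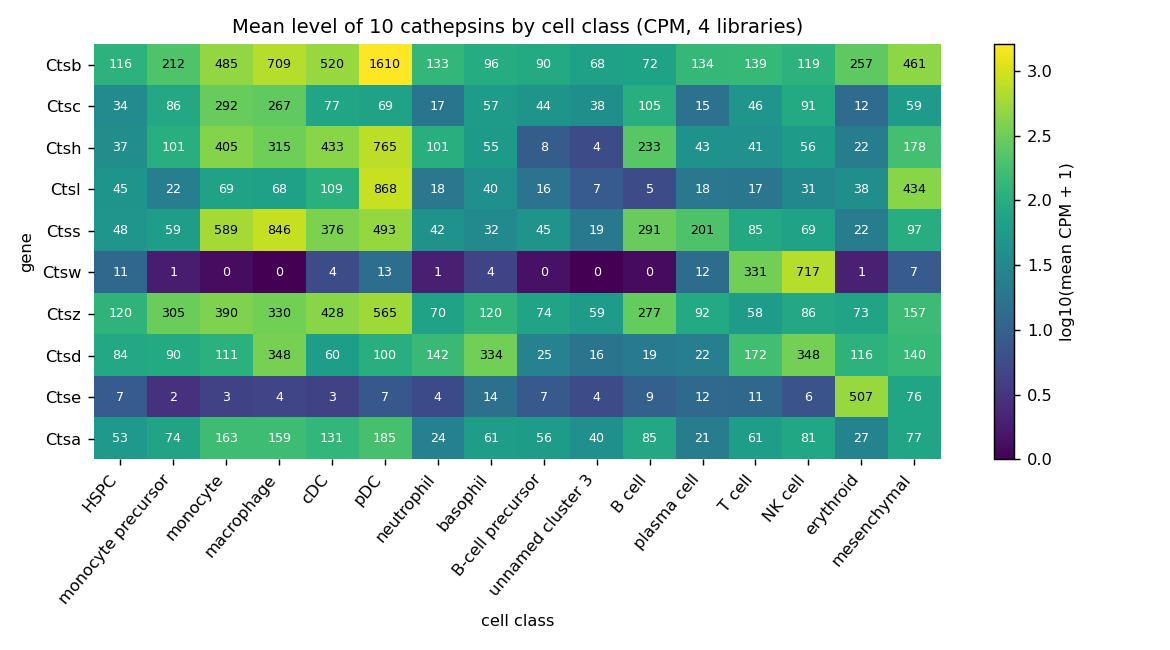
Mean CPM over the 4 libraries of each cathepsin (rows) in each cell class (columns), with the value, rounded to a whole number, in the cell and log10(mean CPM + 1) as its colour. Ctsb, Ctsh, Ctsl, Ctsz and Ctsa peak in pDCs, Ctse in erythroid cells and Ctsw in NK cells.

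Among the other cysteine cathepsins, Ctsb, a broadly expressed lysosomal endo- and carboxypeptidase, also peaked in pDCs, between 1469 and 1817 CPM, above the 475.7 to 968.3 CPM of macrophages. Ctsh, an aminopeptidase, lay between 697.7 and 922.0 CPM in pDCs, above the 403.5 to 464.7 CPM of cDCs, and monocytes, at a mean of 405 CPM, overlapped the cDCs. Ctsz, a carboxypeptidase also called cathepsin X, had a mean of 565 CPM in pDCs, 428 in cDCs and 390 in monocytes, with overlapping ranges. Ctss, which completes invariant chain processing in antigen-presenting cells, was highest in macrophages at a mean of 846 CPM, followed by monocytes at 589 and pDCs at 493 CPM. These 3 overlapped in turn, and every pDC library lay above every cDC library. Monocytes were first for Ctsc, the dipeptidyl peptidase that activates granule serine proteases, at 292 CPM, and macrophages followed at 267 CPM. The patterns of Ctsh and Ctsz were most like that of Pld4 (r = 0.960 and 0.933). Ctsw, a cathepsin of cytotoxic lymphocytes, was at 651.2 to 761.7 CPM in NK cells and 275.7 to 407.7 CPM in T cells, and these 2 classes held 37.4% and 47.5% of its 2284 UMIs. Its nearest pattern was that of Myo6 (r = 0.991), followed by Il2rb (0.978), a cytokine receptor chain, and Tbx21 (0.974), a transcription factor, both of NK and T cells.

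Ctsd, a major lysosomal endopeptidase, had means of 348 CPM in macrophages, 348 in NK cells and 334 in basophils, and 19.4 CPM in B cells. An annotated gene on the same strand, Gm49369, overlaps Ctsd, and UMIs in shared exons could be lost or split between them. Ctse, an intracellular protease found in endosomes, had 95.4% of its 16870 UMIs in erythroid cells, at 437.4 to 605.8 CPM, with every other class except the doublet-rich mesenchymal cells at a mean of 14.3 CPM or less. Cldn13, a claudin gene, had the most similar pattern (r = 0.983). Ctsa, the serine carboxypeptidase gene, had class means from 185 CPM in pDCs down to 21.2 CPM in plasma cells, and all 15 neighbouring steps overlapped.

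In monocytes, the class on which the set was selected, Ctsl had 647 and 692 UMIs in the TLR9-/- and 174 and 86 in the WT libraries. This was 97.0 and 96.0 CPM against 54.3 and 30.1 CPM, with both TLR9-/- libraries above both WT libraries. The log2 fold change was 1.21 (SE, its standard error, 0.25). Ctsl was found in 33.4% and 36.6% of TLR9-/- monocytes and in 14.5% and 11.7% of WT monocytes, whose median depths were 4111, 4757, 3308 and 3831 UMIs. In B cells, at median depths of 1003.5 to 1647 UMIs, between 0.252% and 0.858% of the cells had a Ctsl UMI. Among monocytes with at least 1000 UMIs, thinned to 1000 each, the shares were 9.22% and 10.0% against 4.06% and 2.66%. The order was thus the same at equal depth in these cells.

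The monocytes came from 3 clusters. In the largest, 2412 cells led by Fn1, Clec4a3 and S100a4, Ctsl was at 129 and 116 CPM in the TLR9-/- and 32.3 and 34.9 CPM in the WT libraries. A deeper cluster of 1137 cells, led by Fn1 and F13a1, had 57.2 and 65.9 CPM against 26.1 and 19.3 CPM. The genotypes overlapped in the smallest, 295 cells of which 91.5% were marked as doublets, at 174.8 and 149.4 CPM against 153.0 and 57.0 CPM. In this cluster WT library 1 gave 99 of its 174 monocyte Ctsl UMIs. The summed level of 18 pDC marker genes over all monocytes was 1133 and 1294 CPM in the TLR9-/- and 1723 and 1239 CPM in the WT libraries, none of the 18 was at 0, and 1 of them was higher in both TLR9-/- libraries. Leaving out the 137 monocytes with a UMI of the pDC genes Siglech, Cox6a2, Klk1 or Ccr9, a filter chosen after seeing the data, gave Ctsl levels of 86.8 and 88.2 CPM against 28.6 and 25.7 CPM and a log2 fold change of 1.71. Without WT library 1 the value was also 1.71, and without WT library 2 it was 0.85.

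**Figure D2:**
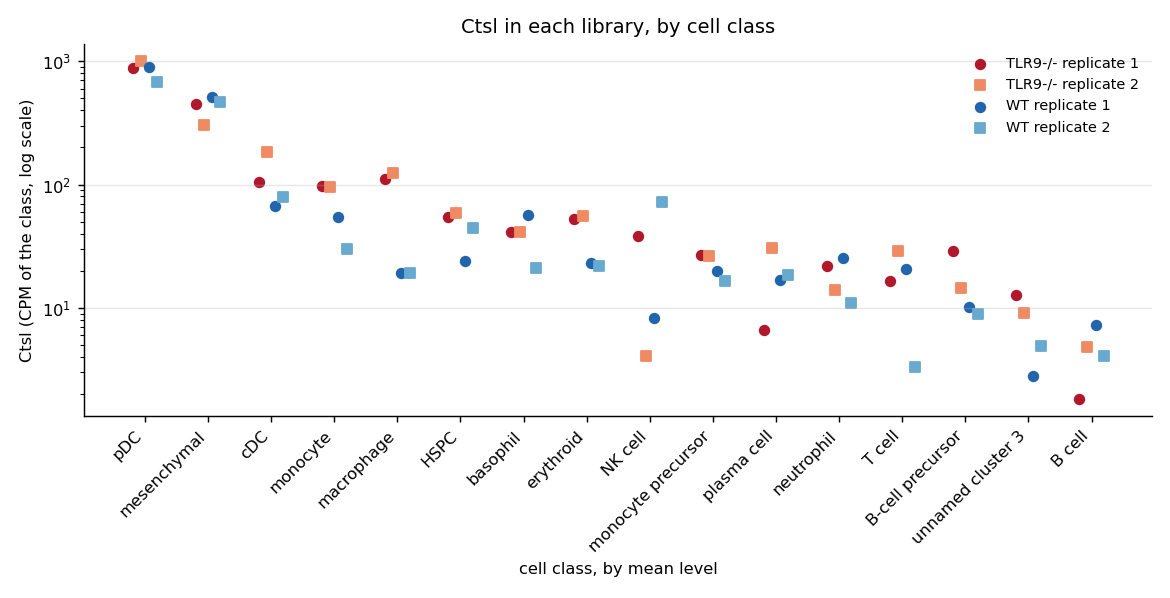
Ctsl in CPM of the class (log axis) in each of the 4 libraries, with classes ordered by mean level and 1 point per library. pDCs lie at 680.3 to 1005 CPM with the genotypes overlapping, and in monocytes both TLR9-/- points are above both WT points.

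Macrophages and the class named monocyte precursors are likewise described only. In the 222 macrophages, named by C1qa, C1qb, C1qc and Vcam1, Ctsl was at 110 and 124 CPM in the TLR9-/- and 19.0 and 19.3 CPM in the WT libraries. These levels rest on 9, 24, 3 and 2 UMIs. After thinning to 1000 UMIs per cell, 1, 3, 2 and 1 UMIs were left, and the genotypes overlapped at 38.5 and 54.5 CPM against 38.5 and 24.4 CPM. In the 2744 monocyte precursors, which carried Mpo, Elane and Prtn3, it was at 26.7 and 26.2 CPM against 19.8 and 16.7 CPM (log2 fold change 0.49). The gap lay in the cluster that also carried Ly6c2 and Cd34, at 30.6 and 34.7 CPM against 17.6 and 20.8 CPM, while in the other precursor cluster, with Ms4a3 and Prss57, the genotypes overlapped at 20.8 and 19.5 CPM against 22.2 and 14.8 CPM. The precursor class also carried granulocyte genes. Its summed level of 9 granulocyte precursor markers was 2717 and 3505 CPM in the TLR9-/- and 3376 and 4353 CPM in the WT libraries. In monocytes that sum was 1132 and 1095 CPM against 1062 and 961 CPM. At resolution 2, 550 cells named monocyte precursors were led by Fcnb, with Cebpe and Camp among their 10 leading genes.

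In pDCs the genotypes overlapped at the levels given above, and the log2 fold change was 0.26 (SE 0.19, adjusted p = 0.882, edgeR), with a 95% interval from -0.16 to 0.69. A doubling, 1 on this scale, lies outside that interval. Among cells thinned to 1000 UMIs, 53.5% and 56.0% of TLR9-/- and 54.4% and 50.5% of WT pDCs had a Ctsl UMI. In B cells the log2 fold change was -0.65 (SE 0.60, adjusted p = 0.984, edgeR), but the interval from -1.98 to 0.68 is wide, with 46 Ctsl UMIs in all. A doubling lies outside this interval too, whereas a decrease by 1 on the log2 scale lies inside it. Whether the monocyte difference exceeds that in pDCs or B cells was not tested, because the monocyte contrast chose the set.

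Outside these classes, Ctsl was higher in both TLR9-/- libraries in B-cell precursors, cDCs, HSPCs, erythroid cells and cluster 3. The summed level of 22 B-cell precursor markers was 12023 to 13299 CPM in cluster 3. It was 15282 to 19470 CPM in B-cell precursors and 12035 to 12716 CPM in B cells. At resolution 2, 1043 cells led by Myl4, Rsph1 and Rsph9 were named B-cell precursors, and 1617 cells led by histone genes were not named. Both TLR9-/- libraries lay above both WT libraries for 19.4% of all genes tested in B-cell precursors, 18.8% in cDCs and 19.2% in HSPCs. That share was 17.4% in erythroid cells and 18.2% in cluster 3. In none of these classes did the adjusted p of Ctsl pass 0.05 in edgeR's main fit, which has no term for the library number. In erythroid cells Ctsl was at 52.6 and 55.9 CPM in the TLR9-/- and 22.9 and 21.8 CPM in the WT libraries. The gap between the genotypes was larger than the spread within either, and the fold change was 1.18 on the log2 scale (SE 0.19, unadjusted p = 0.000847, adjusted p = 0.340, edgeR). The cluster of 785 erythroid cells led by Car1, a carbonic anhydrase, and Mt2, a metallothionein, was at 80.3 and 77.3 CPM against 21.0 and 26.9 CPM. Another of 1976 cells led by Mgst3 and Rhd was at 21.4 and 25.6 CPM against 5.73 and 12.96 CPM. In a globin-rich cluster of 1048 cells the 4 libraries held 1, 3, 9 and 1 Ctsl UMIs. The genotypes overlapped in the last cluster, 378 cells of which 79.6% were marked as doublets, at 52.9 and 61.0 CPM against 82.8 and 32.0 CPM. The summed level of 28 erythroid marker genes, 27 of them in the files, was 106898 and 37501 CPM in the TLR9-/- and 187857 and 50464.5 CPM in WT marrow, with none at 0, and its part in the Ctsl difference was not tested. The adjusted p of Ctsl in erythroid cells ran from 0.00159 to 0.9999 over the alternatives, below 0.05 in 4 of them.

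B-cell precursors had Ctsl at 28.9 and 14.5 CPM in the TLR9-/- and at 10.2 and 8.91 CPM in the WT libraries, with 1.22 as log2 fold change (SE 0.33, adjusted p = 0.231, edgeR). TLR9-/- library 1 stood apart there. Its 226 cells of a precursor cluster with Igll1 and Vpreb1 held 71 Ctsl UMIs, 32.0 CPM, while the other 3 libraries had 5.10 to 7.04 CPM in that cluster. Without that library the log2 fold change over all B-cell precursors was 0.53. Over the alternatives the adjusted p ran from 5.45e-05, without TLR9-/- library 2, to 0.999, after thinning, and it was below 0.05 in 4 of them, also without WT library 1 (0.0351). cDCs had 105 and 185 CPM against 66.9 and 79.0 CPM, with 0.97 as log2 fold change (SE 0.27, adjusted p = 0.362, edgeR) and 0.53 without TLR9-/- library 2. Its adjusted p was below 0.05 with no filter (0.0169) and without TLR9-/- library 1 (0.023), and it reached 1.0 with DESeq2. Of the cDCs, 40.5% had a UMI of Siglech, Cox6a2, Klk1 or Ccr9. With those left out the levels were 27.1 and 31.5 CPM against 12.7 and 19.5 CPM, and the log2 fold change was 0.82. HSPCs, marked by Cd34 and Adgrl4, had 54.7 and 58.5 CPM against 23.8 and 44.3 CPM (log2 fold change 0.69, SE 0.27, adjusted p = 0.587, edgeR). Leaving each library out in turn gave log2 fold changes of 0.34 to 1.26 there. The HSPC class also carried megakaryocyte genes. Its summed level of 19 megakaryocyte markers was 2795 and 2806 CPM in the TLR9-/- and 3063 and 1211 CPM in the WT libraries. That of 13 HSPC markers was 2050 and 2262 CPM against 1967 and 2572 CPM, and their part in the Ctsl difference was not tested. Of the HSPCs 22.4% had a UMI of Siglech, Cox6a2, Klk1 or Ccr9. With those left out, 0 of the 10 members tested in HSPCs had an unadjusted p under 0.05 in edgeR, beside 1 with all cells. Among all genes tested in HSPCs, 736 of 9136 did so with those cells left out and 768 of 9601 with all cells. Both member counts are near these shares. In cluster 3 the levels were 12.6 and 9.07 CPM against 2.79 and 4.90 CPM, from 55 UMIs (log2 fold change 1.497, SE 0.44, adjusted p = 0.430, edgeR), and over the alternatives the adjusted p ran from 0.0421 to 1.0. Neutrophils had 21.7 and 13.9 CPM against 25.3 and 11.0 CPM. Of their 431 Ctsl UMIs, 325 came from 1 cluster of 373 cells in which 70.5% were marked as doublets, and without marked doublets the log2 fold change turned from 0.10 to -1.03.

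**Figure D3:**
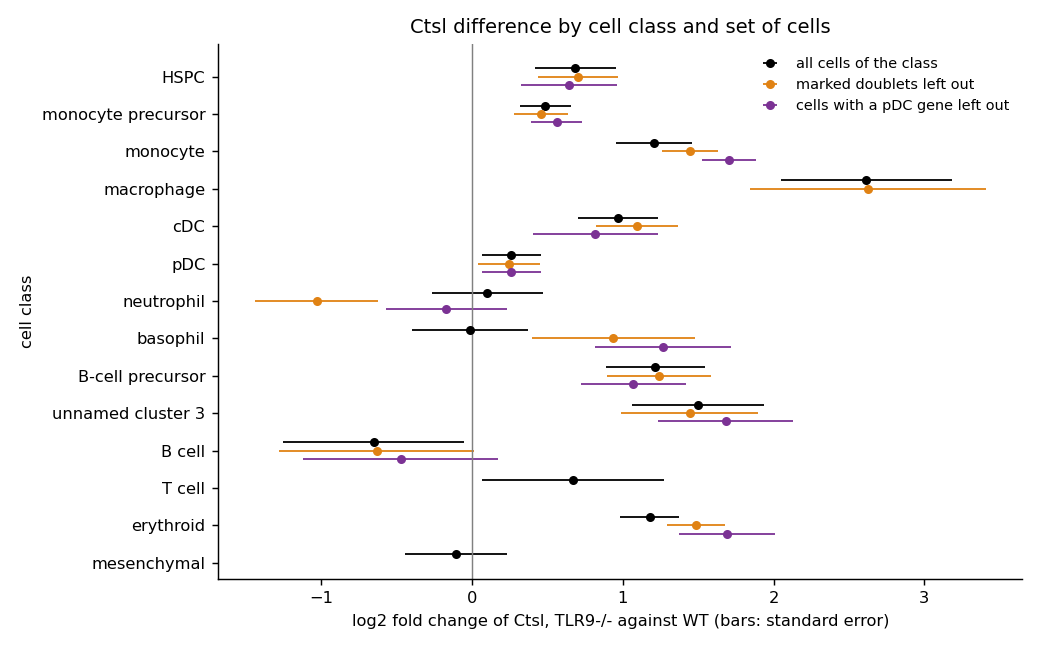
Log2 fold change of Ctsl, TLR9-/- against WT (horizontal axis), with its standard error as a bar, in each class where Ctsl was fitted. Points are for all cells, without marked doublets and without cells that had a UMI of Siglech, Cox6a2, Klk1 or Ccr9. The last filter was not applied to pDCs, so their point for it repeats that of all cells. The monocyte value moves from 1.21 to 1.45 and 1.71, the pDC value from 0.26 to 0.25 without marked doublets, and the neutrophil value changes sign.

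Over the 16 classes, 135 pairs of a member and a class were abundant enough to fit. They include Ctsl in the 3 classes described without a test, and outside these edgeR called 0 pairs at an adjusted p of 0.05. Of all 135 pairs, 18 had an unadjusted p under 0.05, 8 of them of Ctsl, of which 3 are the classes described without a test. Of all genes tested over the same classes, 7.07% had an unadjusted p under 0.05 in edgeR. The 18 pairs include those 3, 1 of which chose the set, so their count is no test beside that share. DESeq2 called 1 pair outside those 3, Ctsl in erythroid cells (adjusted p = 0.0324). With the replicate number as a block, edgeR called Ctsl in B-cell precursors (adjusted p = 0.00119), erythroid cells (0.00758) and cluster 3 (0.0421). It also called Ctsc in monocyte precursors (0.00802) and neutrophils (0.0217). No label ties the library numbers to experiments. Counts for the other alternatives are given at the end. The share of all tested genes called was 0.404% in monocytes, 0.416% in pDCs, 0.234% in B cells, 0.555% in B-cell precursors, 0.38% in monocyte precursors, 0.624% in neutrophils, 0.24% in HSPCs and 0.333% in cluster 3. It was 0.188% in cDCs, 0.14% in basophils, 0.129% in T cells, 0.0903% in NK cells and 0.0666% in erythroid cells, and 0.0% in macrophages, mesenchymal cells and plasma cells. At such shares, 0 of at most 10 members, leaving out Ctsl in those 3 classes, is near the background. Leaving Ctsl aside, 77 of 121 log2 fold changes were above 0. The median over all genes tested lay between -0.0288, in erythroid cells, and 0.0127, in plasma cells. The 121 values repeat the same genes and the same 4 libraries over the classes, so they are not independent, and their number was not tested.

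None of the other 8 cathepsins tested in monocytes passed the threshold, with adjusted p from 0.729 to 0.999. Ctsb was at 459 and 514 CPM in the TLR9-/- and 510 and 458 CPM in the WT libraries, and its log2 fold change of 0.03 had a 95% interval from -0.33 to 0.39. Ctss had 529 and 641 CPM against 617 and 568 CPM, a change of 0.00 (interval -0.37 to 0.38). For both genes the libraries of the genotypes interleaved, and a doubling lies outside the interval. Ctsh had 397.3 and 446.9 CPM against 377.6 and 396.8 CPM (log2 fold change 0.15), and Ctsz had 413 and 403 CPM against 399 and 347 CPM (0.15). Ctsc had the highest fold change after Ctsl, with 338 and 320 CPM against 292 and 217 CPM. Its log2 fold change was 0.39 (SE 0.19, adjusted p = 0.729, edgeR), with both TLR9-/- libraries above both WT libraries.

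**Figure D4:**
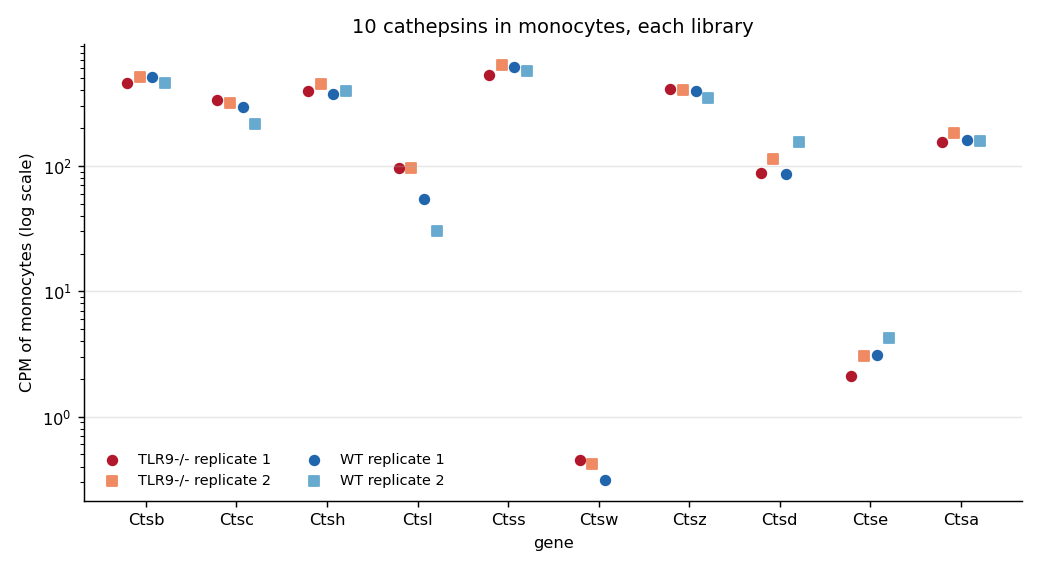
CPM in monocytes (log axis) of the 10 cathepsins, 1 point per library. Ctsl is the gene whose TLR9-/- points (97.0 and 96.0 CPM) lie farthest above its WT points (54.3 and 30.1 CPM), and the point of Ctsw in WT library 2, at 0, is not drawn.

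Ctsd had 87.6 and 113 CPM in TLR9-/- monocytes and 86.5 and 156 CPM in WT monocytes, a log2 fold change of -0.25 with the groups overlapping. Ctsa was at 154 and 182 CPM against 161 and 157 CPM (0.10). Ctse was near absent, at 2.10 to 4.20 CPM from 58 UMIs in the 4 libraries. Ctsw had 7 UMIs and was not tested. Of the 8 members tested in monocytes besides Ctsl, 6 had a log2 fold change above 0 and the median was 0.07, beside -0.01 for all 10137 genes tested. In 3 of the 8, Ctsc, Ctsh and Ctsz, both TLR9-/- libraries lay above both WT libraries after scaling, as they did in 18.9% of all tested genes.

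In pDCs all 10 members were tested and their median was 0.21, beside -0.01 for all 8658 genes. Ctsa was farthest from 0 upwards among them. It was at 182 and 254 CPM in the TLR9-/- and 153 and 152 CPM in the WT libraries, a log2 fold change of 0.53 (SE 0.20, unadjusted p = 0.021, adjusted p = 0.655, edgeR). Ctsb, at 1663 and 1817 CPM against 1469 and 1491 CPM, had 0.24, and Ctsz, at 621 and 620 CPM against 554 and 463 CPM, had 0.29. In these 3 genes both TLR9-/- libraries were above both WT libraries, which was so for 18.3% of all genes tested in pDCs. Ctsh (0.18) and Ctss (0.11) overlapped between genotypes, as did Ctsc (-0.06) and Ctsd (-0.17). Ctse and Ctsw had 40 and 84 UMIs in pDCs.

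B cells were tested for 9 members, with a median log2 fold change of 0.14 beside -0.001 for all 9390 genes. Ctsh was at 208 and 355 CPM in the TLR9-/- and 167 and 201 CPM in the WT libraries, and its log2 fold change was 0.63 (SE 0.28, unadjusted p = 0.0456, adjusted p = 0.785, edgeR). TLR9-/- library 2 was the high one, and without it the log2 fold change was 0.17. Of the 1399 B cells of that library 1051 lay in the cluster led by H2-Eb1 and Fcer2a, as against 520 of 1190 in TLR9-/- library 1, 836 of 1910 in WT library 1 and 979 of 1983 in WT library 2. Within that cluster Ctsh was at 323 and 419 CPM against 274 and 302 CPM. The summed level of 27 B-cell markers over all B cells was 49126 and 61052 CPM against 45868 and 47081 CPM, with 8 of them higher in both TLR9-/- libraries and none at 0, and its part in the difference was not tested. Ctsc, at 115 and 134 CPM against 92.6 and 80.0 CPM, had 0.54 as log2 fold change (SE 0.23, unadjusted p = 0.0365, adjusted p = 0.746, edgeR). Ctss (255 and 392 CPM against 254 and 262 CPM) and Ctsz (307 and 271 CPM against 274 and 255 CPM) overlapped between genotypes. In 3 of the 9, Ctsc, Ctsd and Ctsh, both TLR9-/- libraries were the higher, against 17.6% of all genes tested in B cells. In B-cell precursors 2 of 9 were so, Ctsl and Ctsz, against 19.4%. Ctsh was there at 3.8 to 11.7 CPM, far below its 233 CPM mean in B cells, and Ctsb was at 78.7 and 123 CPM against 80.2 and 78.4 CPM (log2 fold change 0.30).

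**Figure D5:**
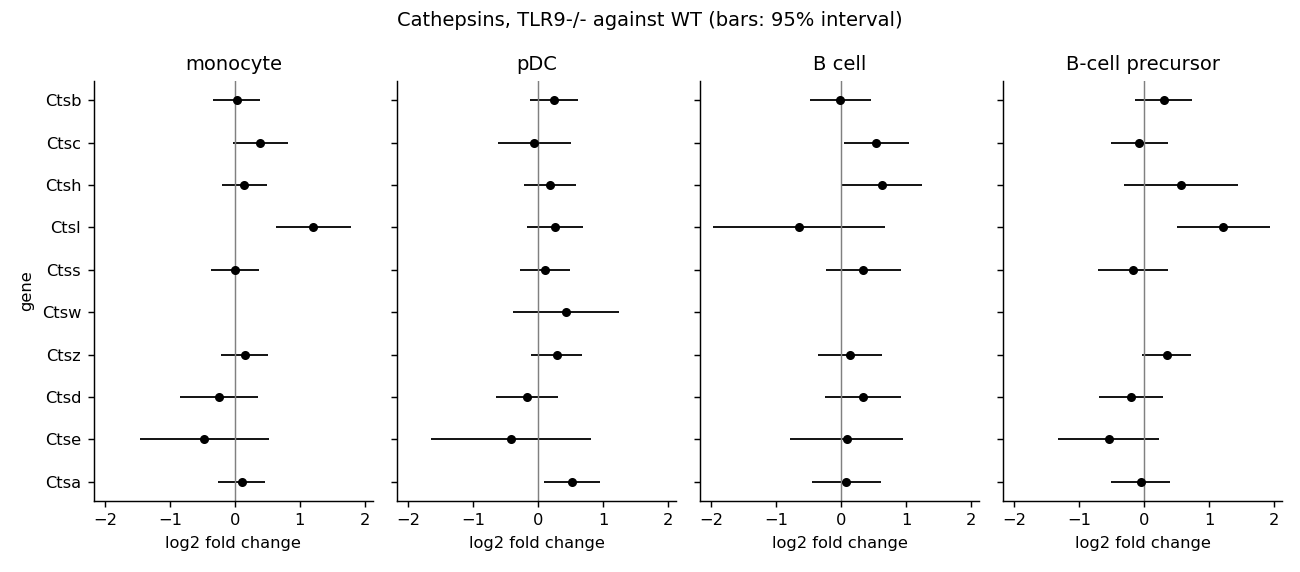
Log2 fold change with its 95% interval of each fitted cathepsin in monocytes, pDCs, B cells and B-cell precursors, TLR9-/- against WT. Ctsl is at 1.21 in monocytes, 0.26 in pDCs, -0.65 in B cells and 1.22 in B-cell precursors. The interval drawn for Ctsl in monocytes is no test, because that difference chose the set. All intervals of Ctsb and Ctss include 0.

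In neutrophils Ctsc was at 22.2 and 18.9 CPM in the TLR9-/- and 16.0 and 9.63 CPM in the WT libraries (log2 fold change 0.81, SE 0.27, unadjusted p = 0.0127, adjusted p = 0.404, edgeR), and Ctsz at 81.5 and 78.4 CPM against 62.2 and 57.2 CPM (0.49, adjusted p = 0.527). Without marked doublets Ctsc was at 4.34 and 5.51 CPM against 4.85 and 4.96 CPM, where the genotypes overlapped, and its log2 fold change was 0.10. Ctsz was then at 50.02 and 58.5 CPM against 45.9 and 48.0 CPM, with 0.28 as log2 fold change. With all neutrophils, 9 of 9 fitted members were above 0, with a median of 0.30 beside -0.01 for all genes tested. Without marked doublets 5 of 9 were above 0, with a median of 0.10 beside -0.002. Macrophages, from 34 to 66 cells per library, had all 8 fitted members above 0. Their median, with Ctsl among them, was 0.73 beside 0.01 for all 1914 genes. After scaling, Ctsb, Ctsc, Ctsh, Ctsl, Ctss and Ctsz were higher in both TLR9-/- libraries, as were 20.1% of all genes tested in macrophages, while Ctsa and Ctsd overlapped. Ctsh had the largest log2 fold change after Ctsl, 0.93 (adjusted p = 0.433, edgeR). Ctss was there at 1201 and 989 CPM against 691 and 503 CPM (log2 fold change 0.90, adjusted p = 0.433, edgeR), and Ctsb at 784 and 968 CPM against 476 and 609 CPM (0.74, adjusted p = 0.525). In the same macrophages the summed level of 14 macrophage marker genes was 8871 and 6105 CPM against 6045 and 4575 CPM, also higher in both TLR9-/- libraries. That of 21 monocyte markers was 9006 and 9564 CPM against 7637 and 5223 CPM. Taken singly, 4 of the 14 and 12 of the 21 were higher in both. The summed level of 22 B-cell precursor markers in the macrophages moved the other way, at 1887 and 1569 CPM against 6483 and 6316 CPM, with 0 of the 22 higher in both TLR9-/- libraries and 1 at 0. Their part in the cathepsin differences was not tested. Ctse in erythroid cells, where almost all of it was found, was at 437.4 and 605.8 CPM against 531.2 and 455.3 CPM (log2 fold change -0.03, 95% interval -0.63 to 0.57). Ctsw in NK cells was at 708 and 651 CPM against 748 and 762 CPM (-0.14, interval -0.71 to 0.42), so both TLR9-/- libraries were the lower ones but the interval includes 0. In T cells it was at 408 and 288 CPM against 354 and 276 CPM (0.12). Ctsw in monocyte precursors had a log2 fold change of 2.03 (SE 0.62, adjusted p = 0.435, edgeR), from 47 UMIs in all. Of 21 NK-cell markers 13 were higher in both TLR9-/- libraries of the monocyte precursors and none was at 0, while their summed level overlapped at 682 and 949 CPM against 812 and 1050 CPM. Of all genes tested in monocyte precursors, 19.8% were higher in both after scaling. Ctse in mesenchymal cells, with 24 UMIs, was at -2.80 (SE 0.91, adjusted p = 0.227, edgeR). The summed level of the erythroid markers in mesenchymal cells was also lower in both TLR9-/- libraries, at 726 and 3285 CPM against 4869 and 21797 CPM, with 0 of 27 genes higher in both and none at 0. The part of either marker list was not tested.

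The genes that work with cathepsins were read in monocytes as lists. None of the 42 list genes tested passed the adjusted threshold in edgeR's main test or in DESeq2, and 3 had an unadjusted p under 0.05, Tlr9 among them, where 7.24% of all genes tested in monocytes did. Of 13 other cathepsin genes, 2 were abundant enough to test. Ctsg, the neutrophil granule protease, had a log2 fold change of 0.21 and Ctso -0.41. Of 14 inhibitors 6 were tested, with a median of 0.04. The 3 farthest from 0 were Gm5483 (1.44, SE 0.98), Serpina3g (-1.16, SE 0.66) and Ctla2a (0.20, SE 0.44), at 0.00 to 18.4 CPM. Of 25 genes of lysosomal sorting and activation 24 were tested, 15 above 0, with a median of 0.05. Lgmn, the asparaginyl endopeptidase that processes cathepsin precursors, had a log2 fold change of -0.54 (SE 0.22, adjusted p = 0.646, edgeR). Scarb2, the receptor that carries beta-glucocerebrosidase to lysosomes, also had -0.54 (SE 0.17, adjusted p = 0.455), and Gnptab, which makes the mannose 6-phosphate tag of lysosomal enzymes, had -0.48 (SE 0.21). These 3 were lower in both TLR9-/- libraries. Over the 24 genes, 4 were lower and 5 higher in both, beside 19.1% and 18.9% of all tested genes. Of 14 substrates and partners, 13 of them in the files, 10 were tested, 2 above 0, with a median of -0.19. The farthest was Tlr9 itself, the targeted gene (-1.95, SE 0.41, adjusted p = 0.159, edgeR), followed by Tlr7 (-0.52, SE 0.30) and H2-Ab1 (-0.30, SE 0.28). Over all 10137 genes the median was -0.01.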

How the data were processed

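The deposited files hold counts: UMIs per gene and cell barcode, which the authors made from 10x 5′ reads with Cell Ranger on mm10, with STAR and Seurat 2.3.4 named in the submitters' processing notes. The 4 matrices were analysed here as deposited. Cells with 200 to 10000 detected genes and at most 10% mitochondrial UMIs were kept. Under 200 genes were found in 1142 barcodes, and 266 exceeded the mitochondrial limit. Then 2000 variable genes, without genes named Cts, gave 30 principal components, a graph of 20 neighbours and Leiden clusters at resolution 1 (leidenalg 0.10.2). A cluster was named where at least 3 markers of 1 class, more than of any other, were among its 10 leading genes, or else its 30 leading genes. Doublets were marked by Scrublet's procedure, taking the highest scores at 0.8% per 1000 cells, and kept in the main sums (3093 cells). UMIs were summed per class and library, classes needing 10 cells in each library, and tested in edgeR 4.0.16 (TMM, filterByExpr, quasi-likelihood test, R 4.3.3). Standard errors are the fold change over the root of F, and 95% intervals use the fit's degrees of freedom. DESeq2 1.42.0 and the alternatives described at the end were also run. The fit was also run on simulated counts with known folds. These had the same dispersion for every gene and no effect of the library number, so that run does not show how the fit performs on these data. Positions come from GENCODE vM21 (GRCm38).

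The members and lists were chosen with earlier results of these data known. Named were all 10 members in every class, of each list the genes called in monocytes plus the 3 with the largest absolute log2 fold change, and for each member the 3 genes with the most similar pattern over the named classes, of which some are not reported here. The 2 libraries of a genotype come from separate mice, and p-values measure the spread between these 4 libraries. Alternatives were DESeq2, no filter on low counts, the replicate number as a block, marked doublets left out, cells thinned to 1000 UMIs, resolution 2 and each library left out in turn. Thinning left out cells with fewer than 1000 UMIs, so its values come from a deeper subset of each class. A filter on cells with a pDC gene was added after seeing the data. It was not applied to pDCs, so their fit under it is that of all cells. The study's own cell labels were not used here.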

Additional observations from a re-analysis of the deposited data

Results flagged for a closer look

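In 6 cases a cathepsin was lower in both TLR9-/- libraries of one class and higher in both in others, on the CPM scale before edgeR's scaling. Only classes with at least 10 UMIs of the gene in every library were compared, and for Ctsl not the monocytes, monocyte precursors or macrophages. The differences between classes were not tested, and with 2 libraries per genotype 21.2% of the genes tested in mesenchymal cells, 16.3% in NK cells and 15.4% in plasma cells had both TLR9-/- libraries below both WT libraries. In the 63 mesenchymal cells Ctsl had a log2 ratio of mean CPM of -0.37 (452 and 303 CPM against 513 and 467 CPM), while it was higher in both TLR9-/- libraries of 4 such classes, B-cell precursors, HSPCs, cDCs and erythroid cells. After edgeR's scaling the mesenchymal libraries of the genotypes overlapped. Ctsh had -0.23 there (167 and 161 CPM against 217 and 168 CPM). After edgeR's scaling its mesenchymal libraries overlapped too, and its log2 fold change was 0.07. In plasma cells Ctsh had -0.53 (30.8 and 39.4 CPM against 46.4 and 55.3 CPM), and it was higher in 4 classes. Of the 122 plasma cells 65.6% were marked as doublets, and they held 50 Ctsh UMIs in all. In NK cells Ctsc had -0.45 (89.1 and 65.1 CPM against 112 and 98.6 CPM) and was higher in 7 classes, Ctsa had -0.37 (67.7 and 73.3 CPM against 83.2 and 98.6 CPM) and was higher in 3, and Ctsw had -0.15 (708 and 651 CPM against 748 and 762 CPM) and was higher in 1, pDCs, where the libraries overlapped after scaling. The summed level of 21 NK-cell markers in NK cells was also lower in both TLR9-/- libraries, at 32090 and 34658 CPM against 43559 and 41375 CPM. That of 21 neutrophil markers was 36737 CPM in TLR9-/- library 2 and 1958 to 3862 CPM in the other 3. Their part in these differences was not tested.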

How the results depend on the processing

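The log2 fold change of Ctsl in monocytes, which chose the set and is described only, was positive under every alternative run. It was 1.706 without cells that had a pDC gene, and 0.847 to 1.711 with each library left out in turn. The lowest was without WT library 2 and the highest without WT library 1. Both TLR9-/- libraries lay above both WT libraries. Leaving 1 out keeps that order, so these runs are no check of the sign. The number of cathepsins called was 0 in pDCs, in B cells and, Ctsl aside, in monocytes under every alternative run. In B-cell precursors it was 1 (Ctsl) with no filter and 1 with the replicate block (adjusted p = 0.00119), and 0 to 1 with a library left out. In the other classes, without Ctsl in monocyte precursors and macrophages, which is described only, it was 1 with DESeq2, 2 with no filter, 4 with the replicate block (Ctsc in monocyte precursors and neutrophils, Ctsl in erythroid cells, adjusted p = 0.00758, and cluster 3, adjusted p = 0.0421) and 0 to 2 with a library left out. Without marked doublets the log2 fold change of Ctsc in neutrophils was 0.10 (adjusted p = 0.974, edgeR). One partner gene was called with no filter, Tlr9. In each class, the deviations of TLR9-/- library 1 and WT library 1 from the means of their own genotypes were correlated over the genes tested. The correlations were 0.177 to 0.452, except in macrophages (0.00178) and plasma cells (-0.0746). There were only 2 pairs, and no label ties numbers to experiments. Thinning gave Ctse in erythroid cells 753.24 CPM and Ctsw in NK cells 828.36 CPM, and leaving out doublets gave Ctsw in NK cells 803.05 CPM. The causes were not tested.

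Small fold changes changed sign. Ctsl in basophils was 0.012 with DESeq2, 0.014 with no filter, 0.026 with the block, 0.939 without doublets, 0.13 at resolution 2 and 1.268 without pDC-gene cells. Ctsl in neutrophils was -1.029 without doublets and -0.17 without pDC-gene cells. In monocytes Ctsb was -0.02 without doublets, and Ctss was -0.002 with the block, -0.01 without doublets, -0.01 at resolution 2 and -0.019 without pDC-gene cells. In pDCs Ctss was -0.091 after thinning and -0.109 at resolution 2, and Ctsc was 0.115 at resolution 2. In B cells Ctsb was 0.13 after thinning and Ctse -0.017 without pDC-gene cells. In B-cell precursors Ctsc was 0.018 without doublets and Ctsa 0.016 after thinning. With a library left out, Ctsl ran from -0.505 to 0.926 in basophils, -0.342 to 0.164 in mesenchymal cells and -0.488 to 0.766 in neutrophils. In monocytes Ctsb ran from -0.052 to 0.118, Ctsd from -0.603 to 0.232, Ctss from -0.132 to 0.143 and Ctsa from -0.01 to 0.229. In pDCs Ctsd ran from -0.482 to 0.095, Ctsh from -0.014 to 0.371, Ctsc from -0.365 to 0.432 and Ctse from -1.029 to 0.22. In B cells Ctsb ran from -0.074 to 0.047, Ctss from -0.019 to 0.622, Ctsa from -0.21 to 0.3 and Ctse from -0.199 to 0.373. In B-cell precursors Ctss ran from -0.592 to 0.204, Ctsc from -0.221 to 0.097 and Ctsa from -0.319 to 0.201. cDCs and cluster 3 had no value at resolution 2, and mesenchymal and plasma cells none without doublets. No cluster was named cDC at resolution 2. There 540 cells led by Cd209a, with Cst3 and Clec9a, were named monocytes. Another 500 cells led by AC140186.1 and Bex6, with Flt3 and Irf8, were named pDCs. The resolution 2 values of monocytes and pDCs include these cells.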
